A study of Zea mays with 4 samples.

Results

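The 5 genes of amino acid synthesis TSB1, TSB2, asn1, gln2 and sat1 were followed in developing maize kernels of the bt2 mutant and the wild type. Their probe sets, the groups of oligonucleotides that read 1 transcript on the array, were found by gene symbol or synonym. This gave 7 probe sets for 6 genes, out of 17620 maize probe sets with values. The sixth gene is gln1 (LOC542746, also gs2), which came in because RefSeq lists GLN2 among its synonyms, and it is kept apart below from gln2 proper (LOC542400, also gs1-2). A NAC transcription factor gene that shares the synonym Asn1 was left out. The genes were chosen by their mutant against wild-type values on these same arrays, so their differences are described and not tested.

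The series holds 2 mutant samples carrying the bt2-H2328 allele and 2 wild-type samples, each on 1 array, all from untreated greenhouse plants and harvested at 35 days after pollination. The bt2 gene codes for the small subunit of the endosperm enzyme ADP-glucose pyrophosphorylase, which makes the sugar donor for starch, and the study asked whether blocking starch synthesis turns on other routes that use sucrose. The RNA amount was 17 µg for mutant 2 and 20 µg for the other samples. The labels do not state the genetic background, or whether samples of a group came from separate plants, so the spread between samples may be technical. The labels name no dissected tissue, and in such bulk samples fewer cells of a type cannot be told apart from less RNA per cell.

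These genes sit where nitrogen and sulfur enter amino acids. Glutamine synthetases join ammonia to glutamate, with several cytosolic forms (GS1) and a plastid form (GS2). Asparagine synthetase passes the amide nitrogen of glutamine to aspartate, and asparagine is a nitrogen-rich compound that plants use to carry and store nitrogen. The beta subunit of tryptophan synthase joins indole to serine, and serine acetyltransferase makes O-acetylserine, the carbon skeleton of cysteine. In the maize endosperm most of the incoming amino acids end in zeins, the storage proteins, which are rich in glutamine and poor in lysine and tryptophan.

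Levels are GCRMA values in log2, where a difference of 1 is 2-fold. SE is the standard error of the limma fit, moderated by a trend over all probe sets tested. It therefore does not rest on the spread of 1 probe set alone, and can be smaller or larger than that spread gives. bt2 read 10.13 and 10.12 in the mutants, against 12.67 and 12.64 in the wild types. That is a difference of -2.53 (SE 0.09, n = 2 per group; limma adjusted p 0.00514) and a 5.78-fold lower level in the arrays labelled mutant. It did not pass without mutant 1 (adjusted p 0.0733), mutant 2 (0.073) or wild type 2 (0.0805). Mutant and wild type differed across the array. Of 10458 probe sets with a value of 4 or more on at least 2 arrays, 43.2% passed limma at an adjusted p of 0.05, 21.0% higher and 22.1% lower in the mutant. The groups did not overlap in 78.5%, with the mutants higher in 39.3% and lower in 39.2%. All 7 probe sets described here were among those without overlap, and nothing is read from that count, since the contrast chose the genes.

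Among marker genes of kernel tissues, those of the starchy endosperm, the basal transfer layer and the maternal tissues had lower sums in the mutant, and those of the embryo a slightly higher sum on the array-wide scale. The summed level of 6 starchy endosperm markers, the log2 of their added linear values, was 14.29 to 14.36 in the mutants and 15.90 to 15.92 in the wild types. Of the 5 that could be tested, 4 fell. The sum of 6 embryo markers was 16.77 to 16.83 in the mutants and 16.45 to 16.57 in the wild types. Of these, 2 of 5 tested rose and lec1 was under 4 on every array. The 5 differed by 0.15 to 0.43, less than the shift of 1.23 between the array-wide scale and the control RNAs described below, so on that scale they lie under 0. The 5 transfer layer markers summed to 6.17 to 6.74 in the mutants and 9.03 to 9.80 in the wild types. All 4 tested fell, and betl2 was under 4 throughout. Of those tested, betl3, BETL1 and meg2 were under 4 in both mutants. These entered the comparison through the wild types alone, so the filter fixed their direction. The 4 maternal markers summed to 8.76 to 9.21 in the mutants and 10.01 to 10.02 in the wild types, with 2 of 3 tested lower and p1 under 4 throughout. Most of this sum was bde1, at 8.48 and 8.91 in the mutants, against 9.80 and 9.72 in the wild types. The values of ZAG1 overlapped between the groups. The 4 aleurone markers summed to 10.83 to 10.85 in the mutants and 10.87 to 10.91 in the wild types, with 1 of 3 tested higher, 1 lower and cr4 under 4 throughout. The part of these tissue differences in the values below was not tested.

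The 2 tryptophan synthase genes read higher in the mutant by nearly the same amount. TSB1 (LOC732842, also orp1) had values of 9.64 and 9.84 in the mutants, against 7.71 and 7.45 in the wild types. The lower mutant exceeded the higher wild type by 1.93, while arrays of 1 group lay 0.20 apart in the mutants and 0.26 apart in the wild types. The difference of the means was 2.16 (SE 0.16, n = 2 per group), or 4.47-fold. TSB2 (LOC732803, also orp2) had values of 9.27 and 9.52 in the mutants, against 7.10 and 7.28 in the wild types. Here too the groups were well apart, with a gap of 1.99 between the nearest arrays, and the difference was 2.21 (SE 0.16), or 4.61-fold. The pair are duplicate genes of the beta subunit, named orange pericarp for the kernel colour of plants that lack both. Their coding sequences are closely related, and how far each probe set also reads the other copy was not analysed here, so the 2 readings may not be separate.

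asn1 (LOC542435, also AsnS1), an asparagine synthetase gene, was read by 2 probe sets, and both were higher in the mutant. The brighter gave 7.33 and 7.63 in the mutants, against 5.67 and 5.32 in the wild types. The groups lay at least 1.66 apart, more than the 0.30 between the mutants and the 0.35 between the wild types, and the difference was 1.99 (SE 0.21), or 3.96-fold. The dimmer gave 4.45 and 6.70 in the mutants, against 2.87 and 2.96 in the wild types. The mutants differed from each other by 2.25 in this probe set, more than the 1.49 that separated mutant 1 from the wild types, and both wild types were under 4. Its difference of 2.66 (SE 0.78) therefore rests on mutant 2 to a large part. It was 1.54 without mutant 2, the sample with 17 µg of RNA, and 3.79 without mutant 1. With 16 added to each value on the linear scale it was 1.52. Against a level of 4 for the wild types, the mutant mean was at least 2.98-fold higher.

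The glutamine synthetase genes split. gln2 (gs1-2), a cytosolic form whose expression in maize kernels is known from the pedicel, the maternal stalk tissue at the kernel base, was the 1 gene of the set that read lower in the mutant. It had values of 10.49 and 10.54 in the mutants, against 11.99 and 11.75 in the wild types. The mutants lay 0.05 apart and the wild types 0.24, with 1.21 between the nearest arrays of the groups. The difference was -1.36 (SE 0.12), or 2.56-fold lower in the mutant. The transfer layer and maternal marker sums given above were lower on the same arrays, the maternal sum mostly through bde1. The part of these sums in the gln2 reading was not tested.

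gln1 (gs2), the plastid form, read higher. Its values were 4.36 and 4.31 in the mutants, against 2.62 and 2.33 in the wild types, so the mutants stood just above 4 and the wild types below it. The difference was 1.86 (SE 0.21), but against a level of 4 for the wild types the bound is only at least 1.26-fold. With the same 16 added it was 0.75. This probe set and the dimmer probe set of asn1 entered the comparison through their mutant arrays alone.

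sat1 (LOC541958), a serine acetyltransferase gene, had the largest difference of the 5 probe sets with every array at 4 or more. Its values were 11.57 and 11.25 in the mutants, against 8.65 and 7.81 in the wild types. The wild types lay 0.84 apart, the mutants 0.32, and the groups at least 2.60. The difference was 3.18 (SE 0.32), or 9.06-fold. It was the wild types that spread most, and the difference ran from 2.76 without wild type 2 to 3.60 without wild type 1.

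**Figure D1:**
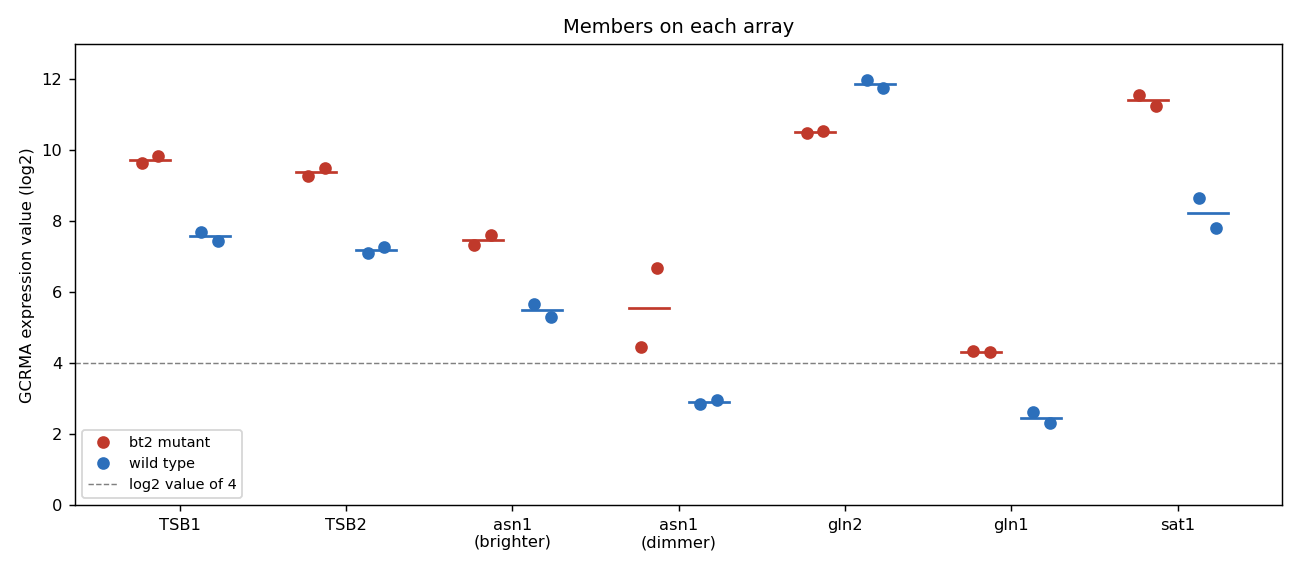
GCRMA expression value (log2) of the 7 probe sets on each of the 4 arrays, with bt2 mutants in red and wild types in blue, a point per array and a short line at the mean of 2 arrays. No probe set has overlapping groups, gln2 alone is lower in the mutant, and the mutants are 2.25 apart in the dimmer asn1 probe set.

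Among the probe sets with every array at 4 or more, the differences ran from sat1 through TSB2, TSB1 and the brighter asn1 probe set down to gln2. gln1 and the dimmer asn1 probe set have no place in this order, since their wild types were under 4. Pairs of single mutant and wild-type arrays give a range of differences for each probe set. With 2 arrays per group these pairs are not independent, and differences between genes were not tested. For sat1 these pairs ran from 2.60 to 3.76, above those of TSB1 (1.93 to 2.39) and TSB2 (1.99 to 2.42), which overlapped each other. The brighter asn1 probe set, at 1.66 to 2.31, overlapped TSB1 and TSB2 as well. gln2, from -1.50 to -1.21, stood apart from all of them.

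Among all 10458 probe sets, the sat1 difference was higher than 99.3%, TSB2 higher than 97.9% and TSB1 higher than 97.8%. The brighter asn1 probe set stood above 97.3%. No rank is given for gln1 and the dimmer asn1 probe set, whose wild types were under 4. gln2 was less extreme, with 8.66% of probe sets lower still. Differences of at least 2-fold were common on these arrays, with 11.7% of probe sets higher and 14.2% lower in the mutant by that much.

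**Figure D2:**
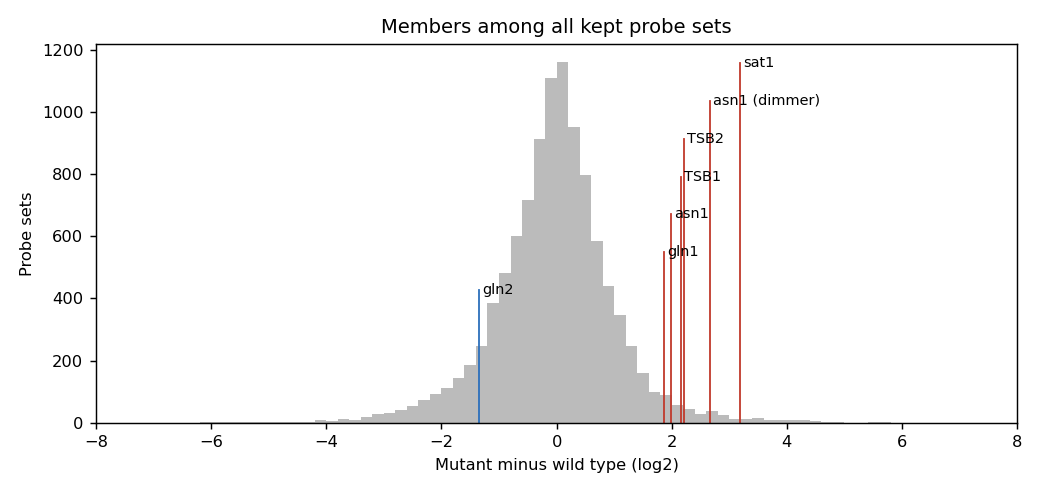
Histogram of the difference between mutant and wild type (log2) for 10458 probe sets, with the 7 probe sets described here as lines, red where higher and blue where lower in the mutant, whose heights serve only to separate the labels. sat1 lies at 3.18, TSB2 at 2.21, TSB1 at 2.16, the brighter asn1 probe set (asn1) at 1.99 and gln2 at -1.36. The places of gln1 and the dimmer asn1 probe set rest on wild types under 4.

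The differences so far use the scaling of the whole array. Control RNAs of bacterial origin (poly-A controls) read higher in the mutant by a median of 1.20 in log2 over 36 probe sets, and centring each array on them moved every difference by -1.23, so that the median over all probe sets tested was -1.25. On that scale sat1 differed by 1.95, TSB2 by 0.98, TSB1 by 0.93 and the brighter asn1 probe set by 0.76, all still above 0. The dimmer asn1 probe set read 1.43 and gln1 0.63, but their wild types were under 4. The bound of 1.26-fold for gln1 is smaller than the shift, so its direction on this scale is not settled. gln2 differed by -2.59, or 6.0-fold lower. Expressed as folds, sat1 was 3.86-fold, TSB2 1.97-fold and TSB1 1.91-fold higher there. In ef1a, the 1 of 3 maize control genes with both ends at 4 or more on every array, the 5′ reading minus the 3′ reading was -1.67 and -2.87 in the mutants, against -1.82 and -2.20 in the wild types for 1 of its 5′ probe sets. For the other it was -2.43 and -3.35 in the mutants, against -1.49 and -1.45 in the wild types. The part of transcript integrity in the values above was not tested.

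**Figure D3:**
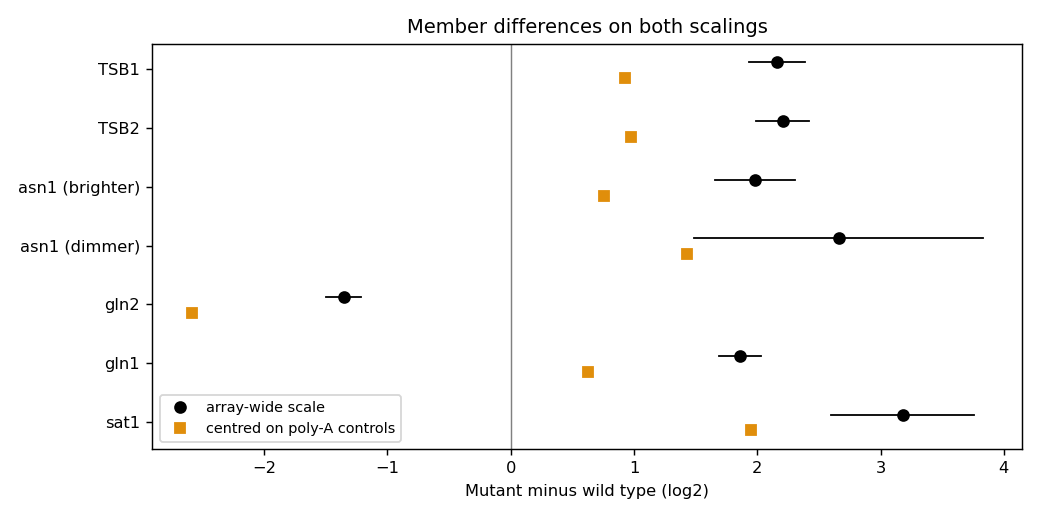
Difference between mutant and wild type (log2) of the 7 probe sets on the array-wide scale (black points, with lines from the smallest to the largest difference between single arrays) and after centring on the poly-A controls (orange squares). The squares lie 1.23 below the points, and those of sat1, TSB1, TSB2 and the brighter asn1 probe set stay above 0. For gln1 and the dimmer asn1 probe set both marks rest on wild types under 4.

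Other genes of amino acid synthesis moved in both directions on the array-wide scale. From a list by symbol, 16 further genes were on the array and 13 had values high enough to test. Of these 4 rose, 3 fell and 6 did not pass, so that 53.8% passed, against 43.2% of all probe sets and 50.3% of 781 annotated genes counted once each (20.9% higher and 29.4% lower). Their median difference was -0.07, against -0.02 over all probe sets tested and -0.18 over the 781 annotated genes. With genes added from the annotation by name, 4 of 20 rose, 4 fell and 12 did not pass, a share of 40.0%, with a median of -0.30. Centred on the poly-A controls, none of the 13 rose and 10 fell, while of all 10458 probe sets 304 rose and 8232 fell. The 10 include gdh1, which entered the comparison through its wild types alone. No gene passed limma without mutant 1, mutant 2 or wild type 2, on the whole array as in this list, although 4523, 4617 and 3633 probe sets were then under 0.05 before adjustment. When wild type 1 was left out, 1 of the 4 rises and 2 of the 3 falls were called.

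Free indole, another product of the precursor that feeds tryptophan synthase, is released by igl1 and bx1. igl1, an indole-3-glycerol phosphate lyase that releases free indole, had values of 6.46 and 6.28 in the mutants, against 7.44 and 7.61 in the wild types. It fell by 1.16 (SE 0.16, n = 2 per group; limma adjusted p 0.0108). bx1, the related lyase of benzoxazinoid synthesis, was between 1.98 and 2.02 on all arrays and was not tested. The shikimate pathway and the alpha subunit of tryptophan synthase were not analysed here.

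Of the other glutamine synthetases, gln5 (gs1-4) rose and gln6 (GS1-1) did not pass. gln5 read 7.57 and 7.94 in the mutants, against 6.46 and 7.00 in the wild types, and rose by 1.03 (SE 0.26; limma adjusted p 0.0362). On the poly-A scaling its difference was -0.20. gln6 read 8.44 and 8.73 in the mutants, against 8.95 and 9.09 in the wild types, and its difference was -0.44 with an adjusted p of 0.0842 from limma. On the poly-A scaling gln6 was called lower (limma adjusted p 5.99e-06), as were 8232 of all 10458 probe sets. gln3 stayed between 3.11 and 3.22 and was not tested. gdh1, a glutamate dehydrogenase gene, read 2.79 and 3.56 in the mutants, against 4.22 and 4.31 in the wild types, and at -1.09 it did not pass (limma adjusted p 0.0523). It was called lower with median or poly-A centring, without the variance trend, with array weights and with the pseudocount, where its difference was -0.48. Both mutants were under 4, so gdh1 entered the comparison through the wild types alone and the filter fixed its direction. These calls are therefore no support for a fall.

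The nitrate and nitrite reductase genes were too low for a test. The nitrite reductase gene NIR read 3.59 and 5.33 in the mutants, against 1.91 in both wild types, in 1 probe set, and 1.96 on all arrays in the other. The nitrate reductase gene NNR1 read 3.25 and 4.31 in the mutants, against 3.11 and 3.17 in the wild types. In both, as in the dimmer probe set of asn1, mutant 2 stood above mutant 1. These readings were close to or under 4 apart from mutant 2 in NIR. NR and nar, nitrate reductase genes added by name, were at most 2.44 and 4.09 on any array.

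The sister genes of sat1, sat2 and sat3, did not pass. sat2 had values of 6.67 and 6.68 in the mutants, against 6.66 and 6.82 in the wild types, and sat3 had 7.15 and 7.46 in the mutants, against 7.31 and 7.24 in the wild types. The groups overlapped in both genes. The differences were -0.07 for sat2 (SE 0.15; limma adjusted p 0.75) and 0.03 for sat3 (SE 0.17; limma adjusted p 0.899). On the poly-A scaling they were -1.30 and -1.20, and both genes were called lower (limma adjusted p 0.000784 and 0.00108). The median over all 10458 probe sets was -1.25 on that scale, and 8232 of them were called lower. The cysteine synthase gene cys2, which acts after serine acetyltransferase, read 11.46 and 11.87 in the mutants, against 11.41 and 11.35 in the wild types, and did not pass at 0.29 (SE 0.17; limma adjusted p 0.225). Its difference was -0.95 on the poly-A scaling, where it was called lower (limma adjusted p 0.00105). That is less far below 0 than the median over all probe sets.

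The sulfite reductase gene sir, which supplies sulfide for cysteine, rose in its brightest probe set. It read 11.99 and 12.14 in the mutants, against 10.92 and 10.09 in the wild types, and rose by 1.56 (SE 0.30; limma adjusted p 0.0191). Wild type 2 was the lowest array, as in sat1. Centred on the poly-A controls the difference was 0.33 and did not pass (limma adjusted p 0.221). Its other probe sets had differences of -0.36 and 0.00 and did not pass, so the rise rests on 1 of 3 probe sets. The APS reductase-like genes aprl1 and aprl3 had differences of -0.04 and -0.29 and did not pass. A second, dimmer probe set of aprl3 differed by 0.18 and did not pass either.

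Methionine genes were divided. cgs1, the cystathionine gamma-synthase that draws cysteine into methionine, rose by 0.90 (SE 0.15; limma adjusted p 0.0154), with values of 9.75 and 9.87 in the mutants, against 9.07 and 8.76 in the wild types. The homocysteine methyltransferase gene hmt1 rose by 0.53 (SE 0.11; limma adjusted p 0.0229), with 9.71 and 9.77 in the mutants, against 9.25 and 9.18 in the wild types. Both differences lay under 0 on the poly-A scaling, at -0.34 for cgs1 and -0.71 for hmt1. There cgs1 did not pass (limma adjusted p 0.211), while hmt1 was called lower (limma adjusted p 0.0104). Both lay above the median of -1.25 over all probe sets on that scale. A second methyltransferase gene, hmt4, fell by 1.90 (SE 0.17; limma adjusted p 0.0076), with 8.84 and 9.10 in the mutants, against 11.03 and 10.71 in the wild types. HMT-2, HMT-3 and the methionine methyltransferase gene MMT1, added by name, had differences of 0.47, -0.30 and -0.86 and did not pass.

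Of 4 genes of the aspartate family, which leads to lysine and threonine, 2 fell and 2 did not pass, against 29.4% of annotated genes lower. Of the 4, dps1 and AKHSDH1 were added by name. akh2, an aspartate kinase and homoserine dehydrogenase gene, fell by 2.13 (SE 0.23; limma adjusted p 0.00808), with 5.73 and 5.37 in the mutants, against 7.49 and 7.86 in the wild types. dps1, the dihydrodipicolinate synthase gene that opens the lysine branch, fell by 1.14 (SE 0.16; limma adjusted p 0.0104), with 6.14 and 6.16 in the mutants, against 7.19 and 7.38 in the wild types. AKHSDH1, of the same kind as akh2, had a difference of -0.45 and lkrsdh1, of lysine breakdown, one of -0.75. Neither passed, with adjusted p values of 0.0559 and 0.0533 from limma. lkrsdh1 was called lower under the stricter floor, quantile normalization, median or poly-A centring and the replicate block.

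**Figure D4:**
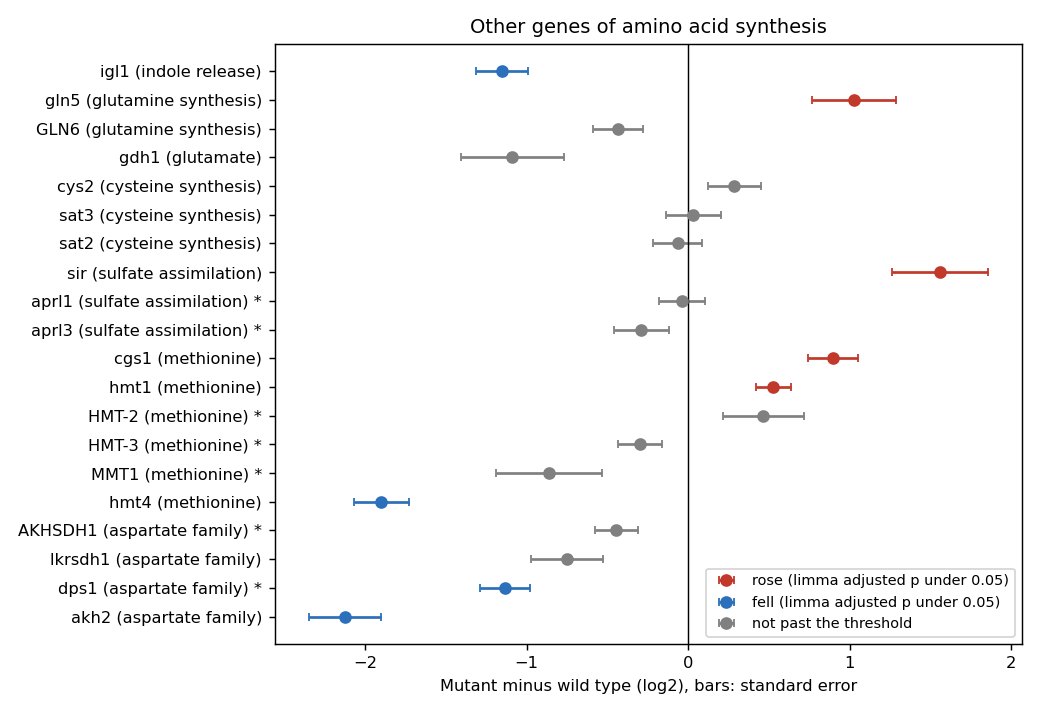
Difference between mutant and wild type (log2, points) with the moderated standard error of the limma fit (bars) for 20 other genes of amino acid synthesis. Genes that rose are red, those that fell blue and those that did not pass grey, with added genes marked by an asterisk. akh2 and dps1 lie at -2.13 and -1.14, while sir, gln5, cgs1 and hmt1 lie above 0, of which gln5, cgs1 and hmt1 lie under 0 on the poly-A scaling.

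The genes whose 4 values ran most like each member were found by Euclidean distance between mean-centred log2 values, over 686 named genes and 4 arrays. With 2 arrays per group, this measure mostly reflects the size of the difference. Nearest to TSB1 were the calcium-dependent protein kinase gene MCK2 at 0.19, the dehydrin gene dhn2 at 0.32 and RH2 at 0.34. TSB2 ran closest to MCK2 at 0.46, and then to pgr5 and the kinase gene cdpk1 at 0.56 each. For the brighter asn1 probe set they were RH2 and MCK2 at 0.31 each and the cystatin gene cpi2, for an inhibitor of cysteine proteases, at 0.32. TSB1, TSB2 and asn1 thus share MCK2 among their nearest genes. gln1, with its wild types under 4, ran closest to cdpk1 at 0.08, RH2 at 0.13 and sum1 at 0.26. For sat1 the nearest were the ACC oxidase gene ACO, which acts in ethylene synthesis, at 0.34, ts2 at 0.57 and PK1 at 0.63. For gln2 they were the histone acetyltransferase gene hac106 at 0.23, the histone deacetylase gene HD2b at 0.26 and Acc-1 at 0.26.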

How the data were processed

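RNA of 4 kernel samples was measured on 1-colour Affymetrix maize arrays, 1 per sample, 2 bt2 mutant and 2 wild type. The deposited log2 values per probe set were made by the authors with GCRMA, per the submitters' processing notes, which corrects background by probe sequence, normalizes and summarises probes; the sources used here give no version. Of 17734 rows, 113 were controls and 1 was empty. Genes were named by the platform annotation, updated by Entrez identifier through RefSeq (Zm-B73-REFERENCE-NAM-5.0). Probe sets with a log2 value of 4 or more on at least 2 arrays were kept (10458). The comparison used limma 3.58.1 under R 4.3.3, with lmFit, a trended eBayes, two-sided p values adjusted by Benjamini-Hochberg over all kept probe sets, and a threshold of 0.05. A gene with several probe sets was counted by the one with the highest mean.

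The members, lists and alternatives were chosen with earlier results of these data known. The rule for named genes took bt2, all members, all measured genes of the lists, markers as counts, and the 3 nearest genes per member. Alternatives were the filter, the scaling, the variance trend, array weights, a pseudocount, the replicate block and leaving out each array. Homonyms (glu1, his1, prf1, smt1) and genes of uncertain role (sam2, AK1) were left out of the lists by name. Each p value rests on the spread between these samples, moderated by the trend over all kept probe sets. It does not measure spread beyond these samples. Only 2 arrays per group limit the precision. Figures were drawn with matplotlib 3.10.9 in Python 3.11.15.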

Additional observations from a re-analysis of the deposited data

Results flagged for a closer look

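Signal outside the main measurement differed between the groups. Over 36 poly-A control probe sets, which enter no comparison between genes, the median difference between mutants and wild types was 1.20 (log2). All 36 read higher in the mutants, but they read only the dap, lys, phe and thr control RNAs, with several probe sets each. They are therefore not 36 independent readings.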

How the results depend on the processing

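bt2 and the 7 probe sets of the members kept the direction of their difference under every alternative run that gave them a value. For the members this is no support, since the contrast chose them. Where groups do not overlap, leaving out an array cannot reverse a sign. For gln1 and the dimmer asn1 probe set the direction also rests on wild types under 4, and that of gln1 on the poly-A scale is not settled. Among pathway genes that had not passed, gdh1 and lkrsdh1 were called lower under 5 alternatives each. For gdh1 the filter fixed this direction, since both mutants were under 4. With poly-A centring alone, cys2, sat2, sat3 and gln6 were called lower as well. With the replicate number as a replicate block, 1620 probe sets were higher and 1824 lower, against 2199 and 2315 without it, and 3 pathway genes rose (hmt1 lost its call) and 4 fell. The labels link same-numbered arrays by no more than the number. The correlation of their deviations was 0.02, and a shared batch was not tested. Without any filter 3484 probe sets were higher, but 2 pathway genes. Centred on the poly-A controls, 304 probe sets were higher and 8232 lower, and 0 pathway genes rose while 10 fell. There cys2 read -0.95, hmt1 -0.71, cgs1 -0.34, sat3 -1.20 and gln5 -0.20, below 0. Of these cys2, hmt1 and sat3 were called lower, while cgs1 and gln5 did not pass. Among genes added by name, HMT-2, HMT-3, MMT1, aprl1, aprl3 and AKHSDH1 were called lower there too. Centring on the median gave 5 pathway falls, as did keeping homonyms (chosen after seeing the annotation, like the added genes). Leaving out 1 array gave 0 to 599 higher and 0 to 596 lower probe sets by limma, where 3633 to 4617 had an unadjusted p under 0.05, and 0 to 1 rises and 0 to 2 falls among pathway genes. bt2 then ran from -2.55 to -2.52, with limma adjusted p values of 0.0486 to 0.0805. A stricter floor of 5 left no value for gln1 or the dimmer asn1 probe set. Depth does not apply to arrays, and values under 4 have no reliable order. The cause of these shifts was not tested.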
